A study of Mus musculus with 16 samples.

Results

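The comparison described here is that of untreated *Tmem173*-/- bone marrow-derived dendritic cells (BMDCs) with untreated wild-type BMDCs, cultures to which no agonist was added. It rests on 4 of the 16 samples of the series, 2 per genotype, chosen by their genotype and treatment labels. The study asked which genes STING and the interferon regulatory factors IRF1, IRF3 and IRF7 control when BMDCs meet the bacterial second messenger c-di-GMP. All mice had the C57BL/6 background, and the labels give neither age nor number of animals, while the study's methods speak of young adult, sex-matched mice, with the knockout lines bred from different sources. Bone marrow cells of each genotype were grown for 6 days with 10 ng/ml GM-CSF and 10 ng/ml IL-4, the cells that floated or were loosely attached were taken, and they were kept for a further 18 h without treatment. No marker sort is given for these samples, so a culture can hold other marrow cells. The other conditions used below are wild-type and *Tmem173*-/- BMDCs treated with c-di-GMP for 18 h (25 µg/ml on the labels, though the study's text gives another dose) and untreated *Irf1*-/- and *Irf3/7*-/- BMDCs, the last lacking both *Irf3* and *Irf7*.

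*Tmem173* encodes STING, an endoplasmic reticulum protein that binds cyclic dinucleotides, either bacterial ones or the cGAMP that the DNA sensor cGAS makes. Bound STING recruits the kinase TBK1, which phosphorylates IRF3, and type I interferon genes are then transcribed. Type I interferon acts on neighbouring cells through STAT2 and IRF9 at interferon-stimulated response elements, and IFN-γ, a product of T and NK cells, acts at gamma-activated sites and induces IRF1. GM-CSF cultures of bone marrow are known to hold dendritic cells, macrophages and granulocytes side by side.

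Expression was given as FPKM (fragments mapped per kilobase of a gene's transcripts, on a scale set by the library's total), 1 value per gene and condition, which the authors' Cuffdiff run had already combined from the 2 samples of a condition. No spread between replicates can therefore be given and no p-value was computed. Differences between cultures cannot be told apart from those of genotype. Read depth cannot be taken from FPKM. The error is the confidence interval deposited with each value, whose median half-width was 25.5% of the FPKM in wild-type and 25.6% in *Tmem173*-/- BMDCs. Of 23356 genes, 11101 were tested, that is, reached 1 FPKM in either genotype and had an accepted fit in both. A gene was called lower or higher when log2(FPKM + 0.1) differed by more than 2-fold and the intervals did not overlap. Folds in the text are plain ratios of FPKM, while log2 differences include the 0.1 FPKM.

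Of the 11101 genes tested, 1221 (11.0%) were called. In untreated *Tmem173*-/- BMDCs 661 genes (5.95%) were lower and 560 (5.04%) were higher than in untreated wild-type BMDCs. The median log2 difference over all genes tested was 0.01. The lower genes reached further: 70 of them but 14 of the higher genes differed by more than 16-fold, and 279 against 143 by more than 4-fold. The balance of directions depended on how the columns were scaled. With both columns set to the same summed FPKM, *Rn45s* left out of the sums, 898 genes were lower and 365 higher. The median of all genes then moved to -0.24. With median centring instead, 671 genes were lower and 549 higher. At the threshold, 99 called genes differed by between 2-fold and 2.1-fold, and 133 genes that were not called lay between 1.9-fold and 2-fold. A further 164 genes differed by more than 2-fold with intervals that overlapped.

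**Figure D1:**
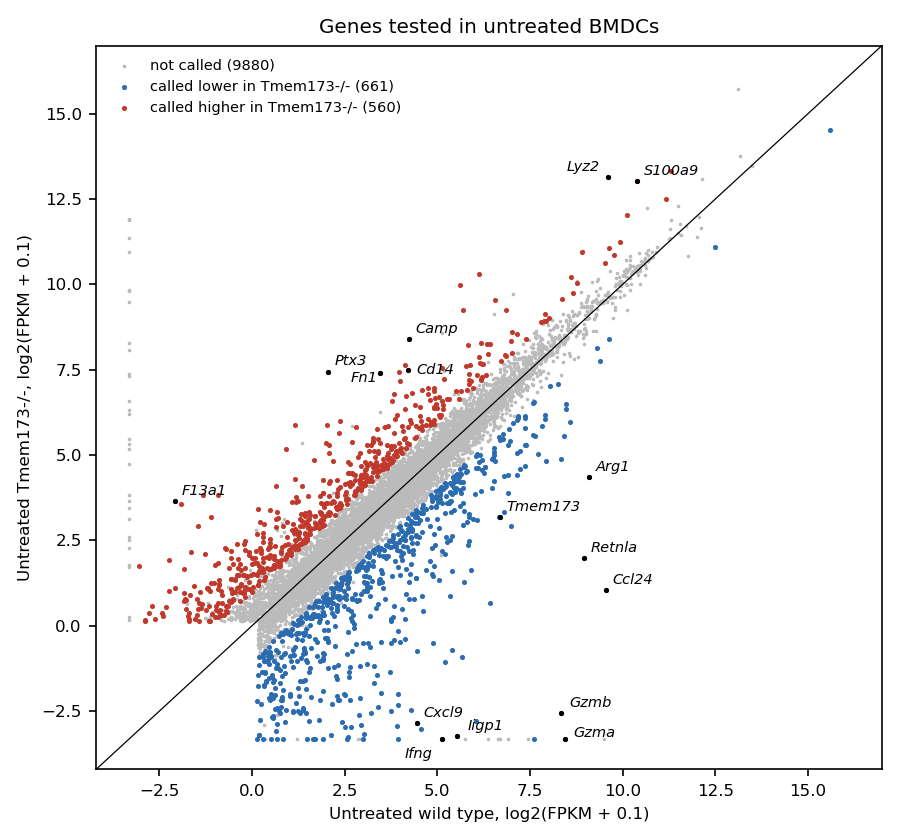
Each point is a gene tested, with log2(FPKM + 0.1) in untreated wild-type BMDCs on the x axis and in untreated Tmem173-/- BMDCs on the y axis; the line marks equal values. The 661 blue points are called lower, with Gzma and Gzmb far below the line, the 560 red points are called higher, with Lyz2, Camp and Ptx3 far above it, and grey points along the edges are listed at 0 in one condition and have intervals that overlap.

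The targeted gene was read first. *Tmem173* stood at 103 FPKM (interval 77.7 to 128) in the untreated wild type, against 8.97 FPKM (6.62 to 11.3) in the untreated knockout, a fall of 11.5-fold. After c-di-GMP the values were 118 FPKM for wild-type and 7.49 FPKM for *Tmem173*-/- BMDCs. It was 77 FPKM in untreated *Irf1*-/- and 86.2 FPKM in untreated *Irf3/7*-/- BMDCs. Both columns of *Tmem173*-/- BMDCs were thus low and every other condition given was high, as the labels say. Some *Tmem173* transcript was still measured in the knockout.

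Dendritic cell genes were expressed in both genotypes. *Cd74*, the invariant chain of MHC class II, was at 4278 and 4060.1 FPKM in wild-type and *Tmem173*-/- BMDCs, and *Itgax*, which encodes CD11c, was at 210.0 and 305 FPKM. *Zbtb46*, a transcription factor of conventional dendritic cells, was at 17.6 and 11.6 FPKM, and none of these was called. Of 15 conventional dendritic cell markers tested, 1 was lower, the migration receptor *Ccr7* (265 and 130.0 FPKM), and 3 were higher, each at or under 3.10 FPKM. For all genes tested the shares were 5.95% lower and 5.04% higher. *Xcr1* was not tested. The Y-linked genes *Eif2s3y*, *Ddx3y*, *Uty* and *Kdm5d* were expressed in both columns and were not called.

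The deepest falls were in genes of cytotoxic lymphocytes. Of 27 T and NK cell markers tested, 24 were lower in untreated *Tmem173*-/- BMDCs, 1 was higher and 2 were not called, with a median log2 difference of -5.20. *Gzma*, which encodes the granule protease granzyme A, was at 349 FPKM (250.4 to 447) in wild-type BMDCs and was listed at 0 in *Tmem173*-/- BMDCs. *Gzmc* was at 197 FPKM and listed at 0, and *Gzmb*, which encodes granzyme B, was at 321 and 0.0685 FPKM. Granzyme genes are alike in sequence, so reads may be split among them. *Il2rb*, the β chain of the IL-2 and IL-15 receptors, was at 65.3 and 0.0439 FPKM, and *Eomes*, a T-box factor of NK and memory T cells, at 8.02 and 0.0106 FPKM. Outside the list, *Ctsw*, a cathepsin of cytotoxic cells, was at 14.9 and 0.02996 FPKM, and the T cell adaptor *Trat1* at 15.2 FPKM and listed at 0. These genes were abundant in one genotype and at or near 0 in the other. The perforin gene *Prf1*, the CD3 chains *Cd3e*, *Cd3d* and *Cd3g*, *Cd8a*, *Cd8b1* and the kinases *Lck* and *Zap70* were lower too. *Klrd1*, the NK receptor subunit CD94, was the higher one, at 2.01 and 4.83 FPKM, a call lost when both columns had the same summed FPKM, *Klrk1* was at 2.98 and 3.83 FPKM, and *Tcf7* at 2.02 and 1.899 FPKM. *Cd4* and *Ncr1* were under 1 FPKM in both and were not tested. Summed over the list without *Ccl5*, a chemokine that dendritic cells make as well, the level was 1246 FPKM in untreated wild-type and 35.9 FPKM in untreated *Tmem173*-/- BMDCs, and 14 of these 28 genes were below 0.1 FPKM in the latter. Most of the wild-type sum came from *Gzma*, *Gzmb* and *Gzmc* (349, 321 and 197 FPKM). Wild-type cultures thus held lymphocyte transcripts that *Tmem173*-/- cultures nearly lacked. In such bulk samples fewer cells of a type and less RNA per cell cannot be told apart.

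The same list set the untreated genotypes apart from each other. Its sum without *Ccl5* was 110 FPKM in untreated *Irf1*-/- and 1320 FPKM in untreated *Irf3/7*-/- BMDCs, and it was 1378 FPKM in treated wild-type and 30.9 FPKM in treated *Tmem173*-/- BMDCs. Against the same untreated wild-type column, 22 of 27 markers were lower and 1 higher in *Irf1*-/- BMDCs, where 3.52% of all genes were lower, 1.26% higher and 4.78% called in all. In *Irf3/7*-/- BMDCs 0 of 27 were lower and 2 higher, where 0.863% of all genes were lower, 1.17% higher and 2.04% called in all. *Gzmb* stood at 10.01 FPKM in *Irf1*-/- and 362 FPKM in *Irf3/7*-/- BMDCs. The untreated *Tmem173*-/- and *Irf1*-/- cultures were the low ones and the untreated wild-type and *Irf3/7*-/- cultures the high ones, and these comparisons share the wild-type samples.

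*Ifng*, the gene of IFN-γ, belongs to the same list. It was at 34.6 FPKM (23.4 to 44.97) in untreated wild-type BMDCs and was listed at 0 in *Tmem173*-/- BMDCs with and without c-di-GMP. The *Irf1*-/- value was 1.26 FPKM and the *Irf3/7*-/- value 44.04 FPKM. Genes that IFN-γ induces were lower too: 30 of 35 tested were lower in untreated *Tmem173*-/- BMDCs, 0 were higher and 5 were not called, with a median log2 difference of -2.92. The part of the lymphocyte transcripts in this result was not tested.

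Among these IFN-γ-induced genes GTPases of cell-autonomous defence were among the largest falls. *Iigp1*, an immunity-related GTPase that attacks pathogen vacuoles, was at 45.9 FPKM (34.7 to 57.2) in wild-type and 0.00647 FPKM in *Tmem173*-/- BMDCs. *Tgtp1*, a T cell-specific guanine nucleotide triphosphate-binding protein, was at 23.4 and 0.0235 FPKM, and *Tgtp2* at 13.3 and 0.0777 FPKM, though these neighbours are nearly identical and may share reads. *Gm4951* was at 19.4 and 0.0824 FPKM. The chemokine *Cxcl9*, which draws T cells through CXCR3, was at 21.7 and 0.0386 FPKM, and *Nos2*, the inducible nitric oxide synthase, at 15.2 and 0.102 FPKM. All 6 were at or under 0.102 FPKM without STING. Higher up the scale, *Gbp2*, a guanylate-binding protein, fell from 382 FPKM (291 to 473) to 62 FPKM (47.02 to 76.95), a change of 6.16-fold. *Cd274* (PD-L1) was at 85.8 and 59.6 FPKM, *Casp1* at 49.5 and 38.2 FPKM, and the Fc receptor gene *Fcgr1* at 18.3 and 29.5 FPKM, and none of these was called.

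Genes that type I interferon induces were lower as well, by smaller steps. Of 44 tested, 37 were lower in untreated *Tmem173*-/- BMDCs, 0 were higher and 7 were not called, with a median log2 difference of -1.79. *Oasl2*, of the oligoadenylate synthetase family, fell 13.7-fold, having 33.1 FPKM (25.3 to 40.9) with and 2.43 FPKM (1.75 to 3.11) without STING. *Oasl1* fell from 8.92 to 0.547 FPKM, *Oas3* from 17.8 to 1.82 FPKM, *Rtp4* from 16.5 to 1.299 FPKM, *Ms4a4c* from 11.03 to 0.624 FPKM and *Ifi44* from 1.92 to 0.1402 FPKM. *Isg15*, a ubiquitin-like modifier, fell from 57.7 to 9.02 FPKM. *Bst2* (tetherin) was at 155 and 84.7 FPKM, *Ifi35* at 57.1 and 37.1 FPKM and *Mx1* at 28.4 and 24.4 FPKM, none of them called. The untreated wild-type level was far below that of stimulated cells: *Oasl2* was at 323 FPKM and *Isg15* at 2262 FPKM in treated wild-type BMDCs. *Ifnb1*, the interferon β gene, was listed at 0 in both untreated genotypes. Taking both interferon lists as 1 set of 81 different genes, 79 were tested, 67 were lower and 0 were higher.

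The interferon lists differed between the untreated knockouts. Of the IFN-γ-induced genes, 32 of 35 were lower in *Irf1*-/- BMDCs and 0 of 35 in *Irf3/7*-/- BMDCs. Of the genes induced by type I interferon, 27 of 44 were lower in *Irf1*-/- and 12 of 44 in *Irf3/7*-/- BMDCs. The shares of all genes that were lower were 3.52% and 0.863%. *Iigp1* was at 0.0896 FPKM in *Irf1*-/- and 54.3 FPKM in *Irf3/7*-/- BMDCs, while *Oas3* was at 3.6 and 4.95 FPKM. *Oas3* was thus below the wild-type level in each knockout, and *Iigp1* was near it in *Irf3/7*-/- BMDCs. All of these values are set against the same untreated wild-type samples.

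**Figure D2:**
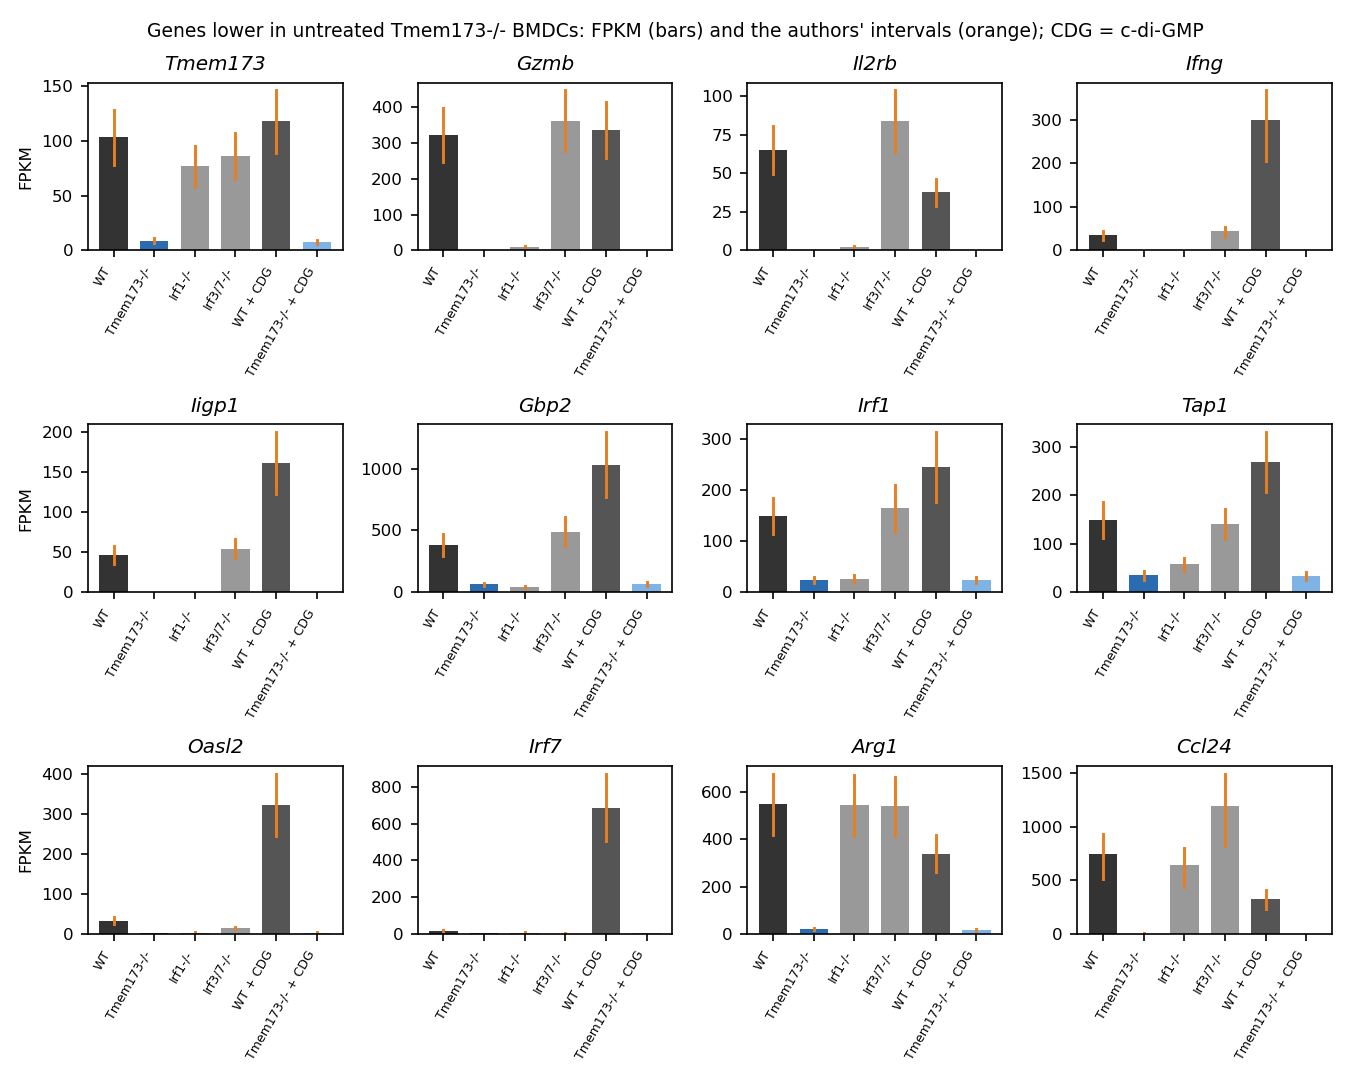
Bars give the FPKM of 12 genes that were lower in untreated Tmem173-/- BMDCs, in 4 untreated genotypes and in wild-type and Tmem173-/- BMDCs treated with c-di-GMP (CDG), and orange lines give the authors' intervals. Gzmb, Il2rb, Ifng and Iigp1 are low in Tmem173-/- and Irf1-/- BMDCs and high in Irf3/7-/- BMDCs, whereas Arg1 and Ccl24 are low only in the Tmem173-/- columns among the 6 drawn.

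The promoters were searched for the letters of the interferon-stimulated response element. Its core, GAAA followed by any 2 bases and a further GAAA, was looked for on both strands in RefSeq windows of 300 bases, from 250 before to 50 after each transcription start (GRCm38.p6). Of the genes tested, 8339 matched a window by symbol, and 4.02% of these held the core in at least 1 window. Among 476 genes called lower it was 13.2% (exact 95% interval 10.3 to 16.6), among 406 called higher 5.17% (3.23 to 7.80), and among 430 called lower that are on neither interferon list 8.84% (6.33 to 11.9). The gamma-activated site TTCNNNGAA, which reads the same on both strands, was in 13.03% (10.1 to 16.4) of those called lower, 9.11% (6.50 to 12.3) of those called higher and 8.53% of all genes tested. Of all 32851 windows, 3.44% held the first and 8.30% the second. These intervals cover counting error only, neighbouring genes with alike promoters are not independent, and a match is a description of letters and not of binding. Of 67 interferon-list genes called lower, 46 had a window and 25 of these held the core. For 17 of them it lay in the 120 bases just before the start, and those bases are printed for the 8 with the largest falls, 5′ to 3′ on the gene's strand with the core in capitals (on the other strand it reads TTTC, 2 bases, TTTC). They show where the letters sit in these genes.
Tgtp1: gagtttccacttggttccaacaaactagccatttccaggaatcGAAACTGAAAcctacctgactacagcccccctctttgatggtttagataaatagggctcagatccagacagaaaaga
Tgtp2: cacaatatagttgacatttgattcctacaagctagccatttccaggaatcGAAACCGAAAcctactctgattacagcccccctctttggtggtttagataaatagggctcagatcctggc
Irgm1: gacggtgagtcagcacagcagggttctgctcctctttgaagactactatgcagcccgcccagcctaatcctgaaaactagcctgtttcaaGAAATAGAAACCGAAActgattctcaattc
Igtp: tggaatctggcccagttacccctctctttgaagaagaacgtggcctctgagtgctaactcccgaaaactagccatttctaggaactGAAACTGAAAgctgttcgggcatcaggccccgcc
Oas3: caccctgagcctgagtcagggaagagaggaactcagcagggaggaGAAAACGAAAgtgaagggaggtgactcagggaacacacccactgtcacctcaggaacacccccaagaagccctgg
Irgm2: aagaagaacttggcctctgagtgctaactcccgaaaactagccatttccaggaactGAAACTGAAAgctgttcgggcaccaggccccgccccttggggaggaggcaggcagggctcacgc
Oas1g: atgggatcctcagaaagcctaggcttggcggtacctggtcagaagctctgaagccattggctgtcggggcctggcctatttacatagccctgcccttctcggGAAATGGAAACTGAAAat
Ifit1: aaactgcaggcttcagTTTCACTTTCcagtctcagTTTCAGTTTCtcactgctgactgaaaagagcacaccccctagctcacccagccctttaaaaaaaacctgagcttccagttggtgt

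These windows lie at chr11:48992247-48992366 (minus strand) for *Tgtp1*, chr11:49064213-49064332 (minus) for *Tgtp2*, chr11:48871421-48871540 (minus) for *Irgm1*, chr11:58199436-58199555 (plus) for *Igtp*, chr5:120777660-120777779 (minus) for *Oas3*, chr11:58214857-58214976 (plus) for *Irgm2*, chr5:120887614-120887733 (minus) for *Oas1g* and chr19:34640769-34640888 (plus) for *Ifit1*, all in GRCm38.p6. In *Irgm1* and *Oas1g* overlapping copies run together, and *Ifit1* held 2 separate copies, the first starting 104 bases before the transcription start. The GTPases *Irgm1*, *Irgm2* and *Igtp* regulate the other members of their family. *Irgm1* fell from 112 to 10.04 FPKM, *Irgm2* from 27.97 to 3.61 FPKM and *Igtp* from 57.3 to 5.45 FPKM, while *Oas1g*, an oligoadenylate synthetase gene, fell from 3.69 to 0.421 FPKM. *Ifit1*, an RNA-binding antiviral protein, was low in both, at 5.89 and 0.783 FPKM. *Irgm1* and *Igtp* were near the wild-type level in *Irf3/7*-/- BMDCs (119 and 57.3 FPKM) and *Ifit1* was not (2.27 FPKM).

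The transcription factors that read these elements were lower in part. Of 29 IRF, STAT and related signalling genes tested, 12 were lower in untreated *Tmem173*-/- BMDCs, 0 were higher and 17 were not called, with a median log2 difference of -0.82. *Irf1* fell from 149 FPKM (113 to 185) to 24.1 FPKM (17.9 to 30.3), a change of 6.196-fold. *Irf7*, the amplifier of the type I interferon response, fell from 15.2 to 3.17 FPKM, *Irf8*, a factor of dendritic cell and monocyte development, from 55.5 to 23.1 FPKM, and *Irf9*, a DNA-binding partner of STAT2, from 35.2 to 15.8 FPKM. *Batf2*, *Usp18* and *Socs1*, the last of these inhibitors of interferon signalling, fell by 10.6-fold, 6.995-fold and 6.43-fold. *Irf3*, whose product is activated downstream of STING, was at 19.9 and 20.7 FPKM, *Irf2* at 51.1 and 37.5 FPKM, *Irf4* at 133 and 70.4 FPKM and *Irf5* at 342 and 302 FPKM, none of them called. *Irf4* passed the call when both columns were set to the same summed FPKM.

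In the cytosolic DNA pathway itself, 6 of 24 genes tested were lower, *Tmem173* included, 0 were higher and 18 were not called, and the median log2 difference was -0.07. Among all genes tested, 5.95% were lower and 5.04% higher. *Mb21d1*, which encodes cGAS, was at 7.66 and 7.24 FPKM, and *Tbk1* at 25.8 and 24.6 FPKM. Beside *Tmem173* and *Irf7*, the lower ones were *Nlrc3* (2.07 and 0.0774 FPKM), which is known to restrain STING, the DNA sensor *Ifi204* (14.8 and 4.58 FPKM), the ubiquitin ligase *Trim56* (5.797 and 2.67 FPKM) and the RNA-editing enzyme *Adar* (28.5 and 14.1 FPKM). *Trex1*, the exonuclease that removes cytosolic DNA, was at 82.9 and 42.6 FPKM, just short of the threshold.

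Antigen presentation genes were read by class. In the MHC class I pathway 12 of 23 genes tested were lower, 0 were higher and the median log2 difference was -1.0. *Nlrc5*, the class I transactivator, fell from 30.3 to 5.02 FPKM, the peptide transporter *Tap1* from 149 FPKM (112 to 186) to 34.6 FPKM (25.97 to 43.1), and the immunoproteasome subunit *Psmb9* from 239.7 to 71.6 FPKM. Of the class I molecules, *H2-Q7*, *H2-T22* and *H2-Q4* fell by 6.79-fold, 3.68-fold and 3.09-fold, though these genes are alike in sequence and reads may be split among them. *B2m*, the light chain, was at 3455 and 1817 FPKM and was not called, but it was called with both columns set to the same summed FPKM. In the MHC class II pathway 3 of 16 genes were lower and 0 higher, beside 5.95% and 5.04% of all genes tested. The median was 0.25. The transactivator *Ciita* fell from 25.8 to 10.7 FPKM and *H2-Oa* and *H2-DMb2* by 2.49-fold and 2.28-fold, whereas *H2-Aa* was at 1031 and 1226 FPKM, *H2-Ab1* at 650.1 and 824 FPKM and the cathepsin gene *Ctss* at 801 and 1342 FPKM, none called. Against the same untreated wild-type column, 13 of 23 class I pathway genes were lower in untreated *Irf1*-/- BMDCs, with a median of -1.04. In untreated *Irf3/7*-/- BMDCs 0 of 23 were lower. In *Irf1*-/- BMDCs 7 of 15 class II genes tested were lower, with *H2-Aa* at 364 FPKM. Of all genes, 3.52% were lower in *Irf1*-/- and 0.863% in *Irf3/7*-/- BMDCs.

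Genes of dendritic cell maturation were lower in 8 of 18 cases and higher in 0, with a median log2 difference of -0.99. *Cd40*, which receives T cell help, fell from 37.01 FPKM (28.8 to 45.2) to 9.82 FPKM (7.26 to 12.4), *Cd200* from 18.9 to 4.44 FPKM, *Pdcd1lg2* (PD-L2) from 77.4 to 24.9 FPKM, *Il15ra* from 12.8 to 5.54 FPKM and the chemokine *Ccl22* from 5771 to 2172 FPKM. *Cd86* was at 71.7 and 36.9 FPKM and *Cd80* at 55.6 and 36.9 FPKM, not called. *Ccl17*, among the most abundant transcripts of either genotype, was at 11439 and 11294 FPKM. Of 23 cytokine genes tested, 8 were lower and 3 higher, beside 5.95% and 5.04% of all genes tested. *Csf2*, which encodes GM-CSF, was at 7.92 FPKM and listed at 0, *Il6* fell from 21.5 to 2.56 FPKM, *Il12b* from 4.59 to 0.892 FPKM, *Csf1* from 76.98 to 22.3 FPKM, and *Lif* and *Tnfsf10* (TRAIL) by 13.8-fold and 12.3-fold. *Il1b* was at 154 and 123 FPKM, *Il1a* at 92.7 and 62.9 FPKM and *Tgfb1* at 123 and 157 FPKM, not called.

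A separate group of falls lay in IL-4-induced genes, which mark alternative activation. Of 23 tested, 11 were lower and 3 higher in untreated *Tmem173*-/- BMDCs, with a median log2 difference of -0.88. *Ccl24*, the eosinophil chemoattractant eotaxin-2, fell from 746 FPKM (513 to 932) to 1.97 FPKM (1.23 to 2.68), a change of 379-fold. *Retnla*, which encodes the secreted protein Fizz1, fell from 499.9 FPKM (309 to 556) to 3.84 FPKM (1.99 to 5.19), and *Arg1*, the arginine-degrading enzyme arginase 1, from 549 FPKM (420.0 to 678) to 20.2 FPKM (15.6 to 24.9), a change of 27.1-fold. *Tgm2* and *Alox15* fell by 8.604-fold and 8.74-fold. These genes were not low in the other untreated knockouts: *Arg1* was at 544 FPKM in *Irf1*-/- and 540.1 FPKM in *Irf3/7*-/- BMDCs, *Ccl24* at 643 and 1189 FPKM, and *Retnla* at 3267 and 2855 FPKM. Against untreated wild-type BMDCs, 0 of 23 genes of the list were lower in either. *Mrc1*, the mannose receptor, went the other way, from 9.52 to 42.7 FPKM, as did *Fn1* and *Klf4*, whereas *Mgl2*, *Socs2* and *Cish* were not called. *Cish* and *Socs2*, direct targets of STAT5, were at 148 and 124 FPKM and at 154 and 107 FPKM.

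Among enzymes of arginine, itaconate and tryptophan metabolism, 8 of 14 tested were lower, 0 were higher and 6 were not called, with a median log2 difference of -1.19. The highest log2 difference in this list was 2.20, in a gene whose intervals overlapped. Besides *Arg1* and *Nos2*, *Irg1*, which makes itaconate, fell from 164 to 55.6 FPKM, the kynurenine pathway enzymes *Kynu* and *Kmo* from 51.5 to 11.98 FPKM and from 48.7 to 15.7 FPKM, and the arginine transporter *Slc7a2* from 41.7 to 17.2 FPKM. *Odc1* was at 175 and 127 FPKM and *Ass1* at 95.9 and 113 FPKM. Over all genes tested, 5.95% were lower and 5.04% higher, shares to set beside the small counts that follow. Of 18 glycolysis genes 1 was lower and 2 were higher, with *Gapdh* at 882 and 797 FPKM and *Ldha* at 639 and 626 FPKM. Of 27 genes of cholesterol and lipid metabolism, 3 were higher, among them the synthesis enzymes *Sqle* and *Fdps* by 2.34-fold and 2.11-fold, and the lipid carrier *Fabp4* was lower by 6.06-fold. *Sqle* and *Fdps* were no longer called with both columns set to the same summed FPKM.

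**Figure D3:**
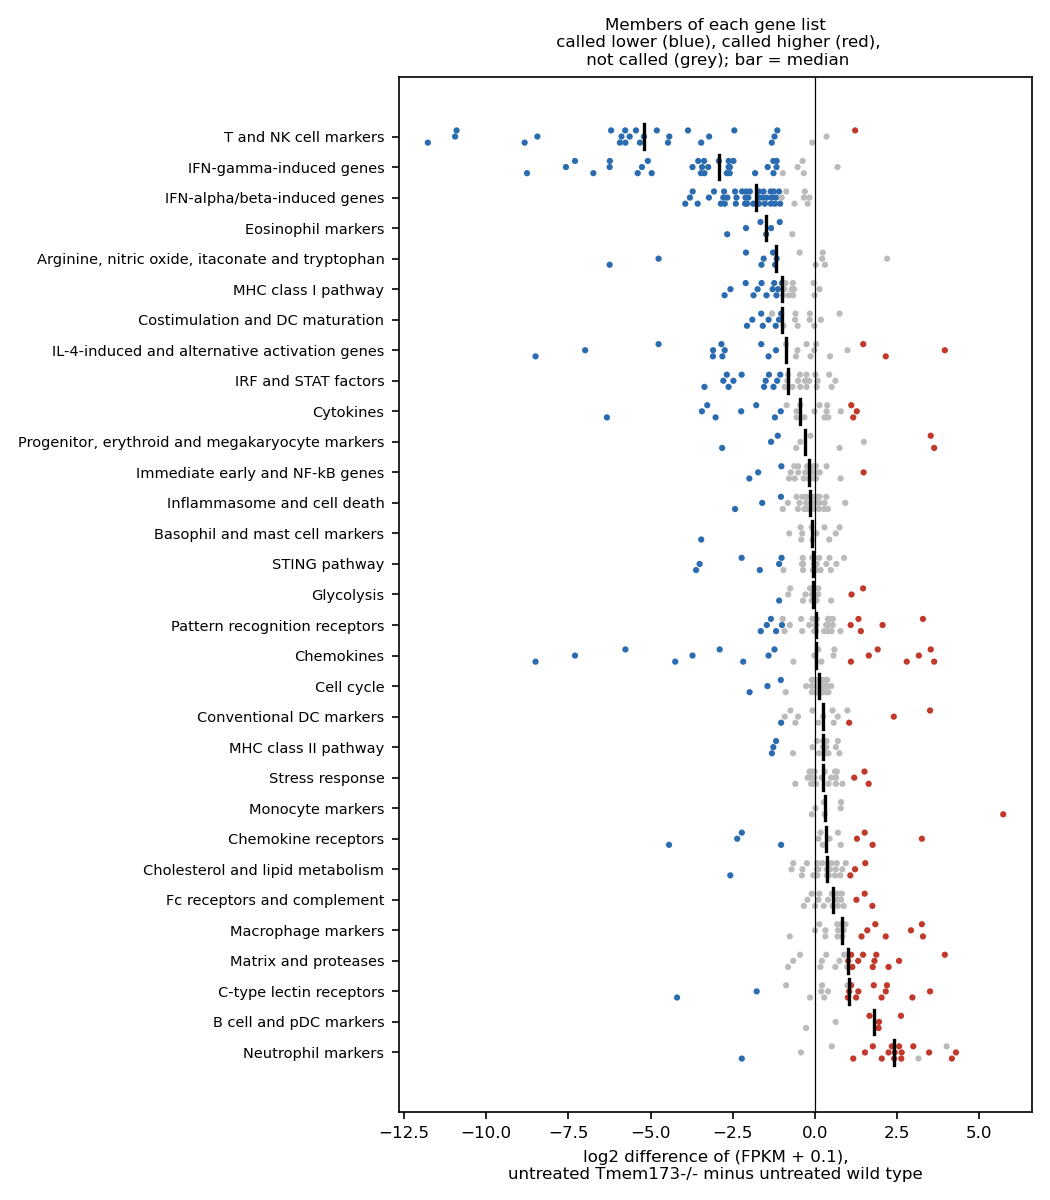
Each point is a tested member of a gene list, placed by its log2 difference of (FPKM + 0.1) between untreated Tmem173-/- and untreated wild-type BMDCs, and the bar is the median of the list. T and NK cell markers (median -5.20) and both interferon lists lie at the low end, and neutrophil markers (median 2.42) at the high end; the lists were chosen with earlier results of these data known.

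On the other side, neutrophil genes were higher without STING. Of 20 neutrophil markers tested, 15 were higher in untreated *Tmem173*-/- BMDCs, 1 was lower and 4 were not called, with a median log2 difference of 2.42. *S100a9*, a subunit of the calcium-binding protein calprotectin, rose 6.17-fold, being at 1350.4 FPKM (893 to 1611) in wild-type BMDCs and at 8336 FPKM (5121 to 10122) without STING. The granule proteins *Camp* (cathelicidin), *Ltf* (lactoferrin) and *Ngp* rose from 18.8 to 339 FPKM, from 15.6 to 174 FPKM and from 93.4 to 743 FPKM. *Fcnb* and *Retnlg* rose by 24.6-fold and 6.34-fold. *S100a8* was at 2531 and 10351 FPKM, values that lie above the upper bounds of their own intervals, as happened for 113 of the tested and 9 of the called genes. *Elane* (2.45 and 40.8 FPKM) and *Prtn3* (6.39 and 57.4 FPKM), proteases of immature granulocytes, were over 2-fold higher with intervals that overlapped. *Cxcr2*, a chemokine receptor of neutrophils, was the marker that fell, from 72.4 to 15.4 FPKM, and *Cebpe* was at 32.7 and 24.4 FPKM. Summed over the list, neutrophil markers came to 4423 FPKM in wild-type, 21243 FPKM in *Tmem173*-/-, 2897 FPKM in *Irf1*-/- and 2551 FPKM in *Irf3/7*-/- BMDCs without treatment, and to 2163 and 15565 FPKM in treated wild-type and *Tmem173*-/- BMDCs. *S100a8* and *S100a9* made up 87.8% of the untreated wild-type sum and 88.0% of the untreated *Tmem173*-/- sum. Without them the other 18 genes came to 542 and 2556 FPKM in these, to 562 FPKM in *Irf1*-/- and 390.2 FPKM in *Irf3/7*-/- BMDCs, and to 415 and 2077 FPKM in treated wild-type and *Tmem173*-/- BMDCs. Both *Tmem173*-/- columns were high and the others given were low, with and without these genes.

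Macrophage markers were higher in 7 of 19 cases and lower in 0, with a median log2 difference of 0.83. Shares over all genes tested were 5.04% higher and 5.95% lower. *Cd14*, the lipopolysaccharide co-receptor, rose 9.79-fold, from 18.5 to 181 FPKM, *Csf1r*, the M-CSF receptor, from 54.3 to 194 FPKM, the scavenger receptor *Marco* from 1.295 to 10.5 FPKM, *Tyrobp* from 391 to 1181 FPKM and the fractalkine receptor *Cx3cr1* from 0.113 to 1.93 FPKM. *Cd14* was also at 181 FPKM in treated wild-type BMDCs, where it was not called higher in treated *Tmem173*-/- BMDCs (151 FPKM). The lysozyme genes *Lyz2* and *Lyz1*, shared by macrophages and granulocytes, rose from 776 to 9000.2 FPKM and from 69.3 to 1261 FPKM, but they are close copies and may share reads. *Axl* was at 179 and 180.1 FPKM, *Trem2* at 43.97 and 83.8 FPKM and *C1qb* at 52.4 and 96.3 FPKM, none called. Of 7 monocyte markers, *F13a1* (coagulation factor XIII) was the only one called, from 0.138 to 12.5 FPKM, with *Ly6c2* at 169 and 207 FPKM and *Ccr2* at 135 and 233 FPKM.

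Receptors and secreted proteins of phagocytes were counted next, beside shares of 5.95% lower and 5.04% higher over all genes tested. Of 20 C-type lectin receptors tested, 11 were higher and 2 lower, with a median log2 difference of 1.02. *Clec4n* (Dectin-2), *Clec4d* and *Clec4e* (Mincle), which bind fungal and mycobacterial glycans, rose by 4.08-fold, 7.85-fold and 4.59-fold, while *Clec4b2* fell from 24.5 to 1.25 FPKM and *Clec7a* (Dectin-1) was at 367 and 426 FPKM. With both columns set to the same summed FPKM, 7 of the lectins were higher. Of 33 pattern recognition receptors 5 were lower (8 with the same summed FPKM) and 5 higher, among the latter *Tlr2* (21.04 and 87.9 FPKM) and *Tlr13* (10.1 and 26.7 FPKM), and among the former the RNA sensors *Ddx58* (14.3 and 5.12 FPKM) and *Dhx58* (12.6 and 4.91 FPKM). The inhibitory Fc receptor *Fcgr2b* rose from 69.5 to 234 FPKM, one of 3 genes of Fc receptors and complement that were higher of 19 tested, with 0 lower and 16 not called. Of 21 matrix and protease genes, 11 were higher and 0 lower, with a median of 1.01. *Fn1* (fibronectin) rose 15.6-fold, from 10.8 to 168 FPKM, the gelatinase *Mmp9* from 17.9 to 106 FPKM, the collagenase *Mmp8* from 11.9 to 56.8 FPKM and the membrane protease *Mmp14* from 19.04 to 64.6 FPKM. *Fn1* was also called higher in untreated *Irf1*-/- (55.7 FPKM) and *Irf3/7*-/- BMDCs (37.1 FPKM). *Ptx3*, a soluble pattern recognition protein that is on none of these lists, rose 42.7-fold, its 4.08 FPKM (2.76 to 5.398) in wild-type BMDCs standing against 174 FPKM (134 to 214) in the knockout. The part of the neutrophil and macrophage transcripts in these rises was not tested.

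Chemokines moved both ways, with 9 of 22 lower and 7 higher, where 5.95% of all genes tested were lower and 5.04% higher. Those lower were the IFN-γ-induced *Cxcl9* and *Cxcl10* (24.1 and 1.73 FPKM), the lymphocyte products *Xcl1* (10.4 and 0.0937 FPKM) and *Ccl1* (14.3 and 0.655 FPKM), *Ccl24*, *Ccl5*, *Ccl7*, *Ccl12* and *Ccl22*. Those higher were *Ccl6*, *Ccl9*, *Cxcl2*, *Cxcl3*, *Cxcl14* and the platelet chemokines *Ppbp* (5.06 and 63.6 FPKM) and *Pf4* (17.3 and 199 FPKM). *Ppbp* was also called higher in untreated *Irf1*-/- (16.97 FPKM) and *Irf3/7*-/- BMDCs (15.6 FPKM). *Ccl3* was at 468 and 706 FPKM and *Ccl4* at 562 and 603 FPKM, not called. Among their receptors 4 of 14 were lower and 4 higher, with *Cxcr6*, found on T cells, at 4.34 and 0.105 FPKM and the formyl peptide receptor *Fpr1* at 30.3 and 102 FPKM.

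**Figure D4:**
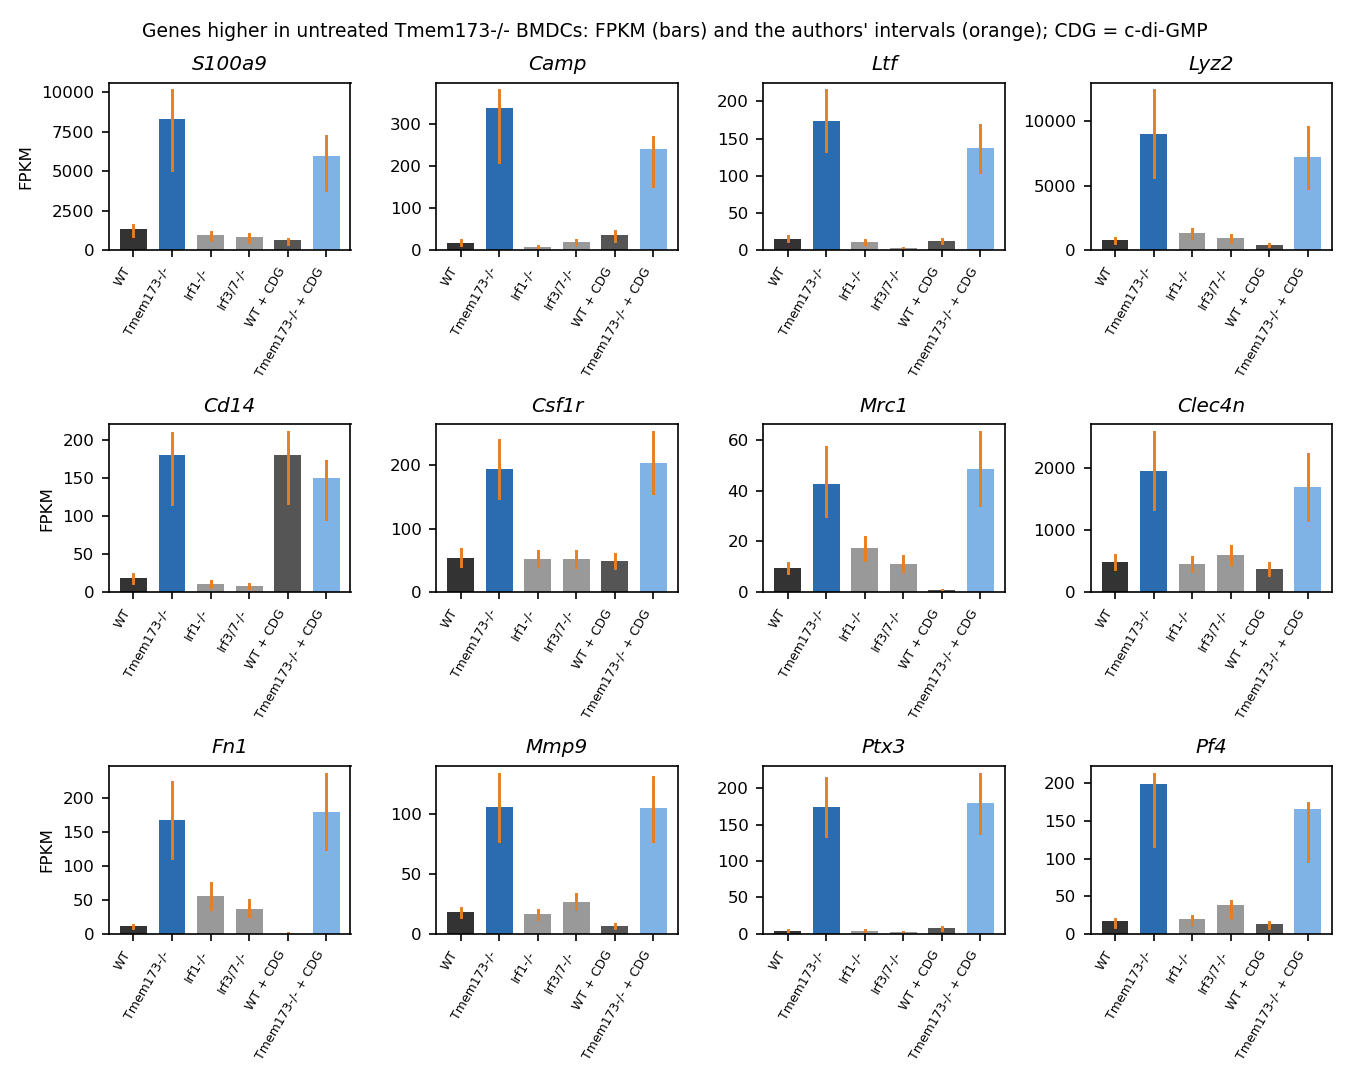
Bars give the FPKM of 12 genes called higher in the untreated Tmem173-/- column, in 4 untreated genotypes and in wild-type and Tmem173-/- BMDCs treated with c-di-GMP (CDG), and orange lines give the authors' intervals. In the untreated genotypes the Tmem173-/- bar is the highest in each panel, and Cd14 also reaches 181 FPKM in treated wild-type BMDCs.

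The largest rises also held genes that are on none of these lists. *Asprv1*, a protease known from epidermis, was at 0.166 and 11.8 FPKM, *Pmp22*, a myelin protein gene, at 0.299 and 14.02 FPKM, and the glycosyltransferase gene *Galnt9* at 0.433 and 14.2 FPKM. *Wfdc17* rose from 49.1 to 1016 FPKM and its relative *1100001G20Rik* from 51.3 to 614 FPKM. The *1100001G20Rik* value of 614 FPKM lies above the upper bound of its own interval (585 FPKM). *Ifitm6*, of the interferon-induced transmembrane family, *AF251705* and the ubiquitin hydrolase *Uchl1* rose by 27.6-fold, 20.5-fold and 14.97-fold. All 8 were also high in treated *Tmem173*-/- BMDCs, *Asprv1* for one at 10.2 FPKM and *Wfdc17* at 662 FPKM. Rises of *Wfdc17*, *Uchl1*, *Pmp22* and *Galnt9* were also called, by smaller steps, in untreated *Irf1*-/- and *Irf3/7*-/- against untreated wild-type BMDCs. *Wfdc17* was at 107 and 120 FPKM there. *Ifitm6* and *AF251705* were called in neither, *1100001G20Rik* was lower in *Irf1*-/- BMDCs, and *Asprv1* was not tested. Among the largest falls, the serpin gene *Serpina3f* was at 50.3 and 0.432 FPKM and *Fam115c* at 36.7 and 0.383 FPKM.

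Markers of other cell types were read as well, beside shares of 5.95% lower and 5.04% higher over all genes tested. Of 7 eosinophil markers tested, 6 were lower, with a median log2 difference of -1.48, among them the granule proteins *Prg2* (676 and 214 FPKM) and *Epx* (73.3 and 29.02 FPKM). Eosinophil markers were lower in the other knockouts too. In *Irf1*-/- BMDCs 5 of 8 were lower and 1 higher, beside 3.52% and 1.26% of all genes. In *Irf3/7*-/- BMDCs 4 of 7 were lower and 0 higher, beside 0.863% and 1.17%. Of 12 basophil and mast cell markers, 1 was lower, *Il13* (2.17 and 0.107 FPKM), with *Mcpt8* at 23.3 and 28.4 FPKM. Of 6 B cell and plasmacytoid dendritic cell markers, 4 were higher, each at or under 6.00 FPKM in *Tmem173*-/- BMDCs, and 7 were not tested. Of 10 progenitor, erythroid and megakaryocyte markers, 3 were lower and 2 higher, the latter being *Pf4* and *Ppbp*. Of 2 stromal and endothelial markers tested, *Pecam1* fell from 18.6 to 2.35 FPKM and *Acta2* rose from 0.391 to 2.27 FPKM.

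For the counts that follow, the shares over all genes tested were 5.95% lower and 5.04% higher, 11.0% in all. Cell cycle genes were not called in 29 of 32 cases. The 3 called were the lower *Ccnd2* (189.8 and 47.8 FPKM), *Cdk6* (17.2 and 6.27 FPKM) and *Ccnd1* (31.3 and 15.2 FPKM), which drive entry into the cycle, while *Pcna* was at 197 and 262 FPKM. Of 26 inflammasome and cell death genes, 3 were lower, among them *Zbp1* (111 and 20.6 FPKM) and *Mlkl* (19.9 and 9.66 FPKM). Of 26 immediate early and NF-κB genes, 3 were lower, among them the NF-κB subunit *Rel* (41.6 and 12.5 FPKM), and *Fos* was higher (1.75 and 5.08 FPKM), with *Nfkbia* at 201 and 191 FPKM. Of 22 stress response genes, 3 were higher, 0 were lower and 19 were not called. The higher ones were the antioxidant enzymes *Nqo1*, *Srxn1* and *Gclm*, by 3.14-fold, 2.85-fold and 2.29-fold, the last no longer called with the same summed FPKM.

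The called genes were then read in conditions whose samples this comparison does not use. In treated *Tmem173*-/- against treated wild-type BMDCs, 13.5% of all genes were lower and 12.9% higher, 26.3% in all. Of the 661 genes lower without treatment, 605 were tested there, 475 were lower and 10 higher. The 475 make up 71.9% of the 661 genes and 31.2% of the 1524 genes lower in that pair. Of the 560 genes higher without treatment, 552 were tested, 334 were higher and 22 lower, the 334 being 59.6% of the 560 and 22.9% of the 1456 genes higher in that pair. In treated *Tmem173*-/- against untreated *Irf3/7*-/- BMDCs, 5.51% of all genes were lower and 4.95% higher, 10.5% in all. There, 437 of the 661 lower genes were lower and 1 was higher, which is 66.1% of them and 71.1% of the 615 genes lower in that pair, and 367 of the 560 higher genes were higher and 4 lower, which is 65.5% of them and 66.5% of the 552 genes higher in that pair. Few genes were called between treated and untreated *Tmem173*-/- BMDCs (0.0552%) or between untreated *Irf3/7*-/- and wild-type BMDCs (2.04%). This last pair thus resembles the main one, and its high overlap is no independent check. The labels do not say whether treated and untreated cultures of a genotype came from the same animals.

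**Figure D5:**
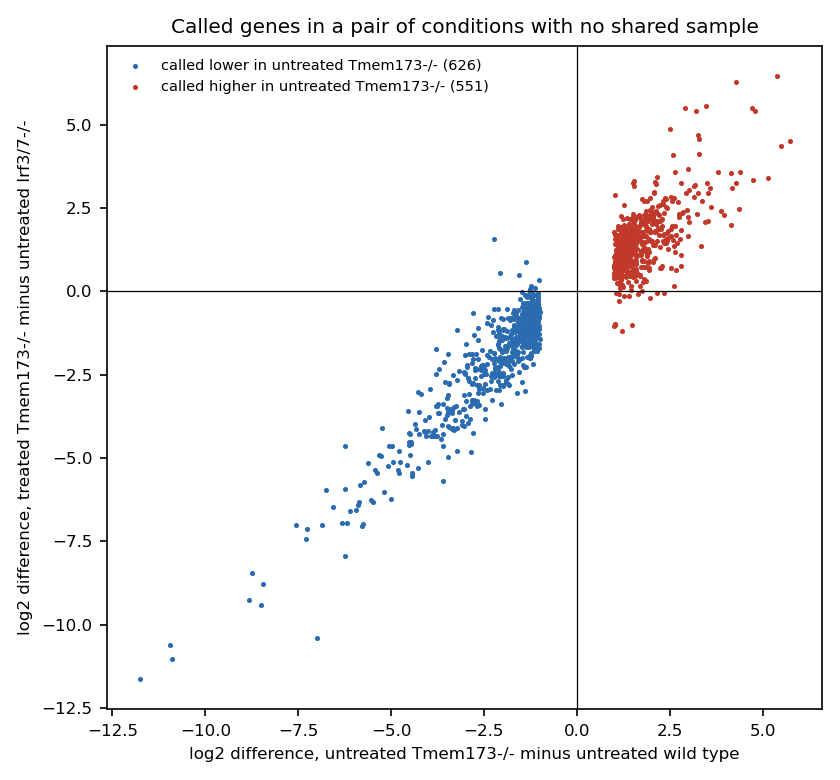
Each point is a called gene, with its log2 difference of (FPKM + 0.1) between untreated Tmem173-/- and untreated wild-type BMDCs on the x axis and between treated Tmem173-/- and untreated Irf3/7-/- BMDCs on the y axis, conditions that share no sample. Of the 626 blue genes tested in both, 437 are called lower in the second pair too, and of the 551 red genes 367 are called higher.

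Within *Tmem173*-/- BMDCs, c-di-GMP moved almost no gene past the call: 6 of 10867 tested (0.0552%) were called between treated and untreated cells, 1 lower (0.00920%) and 5 higher (0.0460%), and 3 of them are among the 1221 called genes above. By this call the untreated *Tmem173*-/- profile was nearly the treated one, and genes such as *Lyz2* (9000.2 and 7240.2 FPKM), *Arg1* (20.2 and 15.4 FPKM) and *Irf1* (24.1 and 23.3 FPKM) were alike in both. Shifts under 2-fold cannot be called. *Lyz1* was at 1261 FPKM untreated and 758 FPKM treated, and *Wfdc17* at 1016 and 662 FPKM.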

How the data were processed

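RNA-seq libraries of BMDCs (stranded mRNA kit, short paired-end reads) were processed by the authors with Cuffdiff in a DNAnexus pipeline, and the submitters' processing notes name Cuffdiff 1.06 and mm9. The gene loci in the table nevertheless fit GRCm38: 21283 of 21522 symbols found once (98.9%) overlap the RefSeq gene of that name in GRCm38.p6. The methods name an opposing-strand setting for a Seqmonk analysis; the sources used here do not give the strand setting, aligner or annotation of the Cuffdiff run. The authors deposited FPKM, 1 per gene and condition, each with an interval and a fit status, already combined over 2 samples; the deposited file holds no counts, so depth is unknown. A set of 4 columns of another knockout was not used. Columns were tied to the groups by their names, and in part by log2 ratios given in the study. The *Tmem173*-/- column with no stimulus in its name was taken as untreated. The one named TM173GDP was taken as treated with c-di-GMP.

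Values were compared as log2(FPKM + 0.1) for genes with at least 1 FPKM in one condition and status OK in both. A gene was called when the fold exceeded 2 and the intervals were apart. No test was possible without replicate values. *Chi3l3* and *Ly6e* lacked an accepted fit in wild-type BMDCs. The script that makes the call was checked on simulated data. A total of 33 gene lists (583 different genes tested) were described by counts and medians.

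Named genes were *Tmem173*, the IRF genes, the 15 largest falls and 15 largest rises at 10 FPKM or more in the higher condition, and per list up to 6 called members with the largest difference and up to 4 others with the highest FPKM, with a few further members chosen after their values were seen, which include those of the printed promoters. A few genes are not reported here. The comparison and the lists were chosen with earlier results of these data known. Alternatives were pseudocounts of 1 and 0.01 FPKM, no minimum or 5 FPKM, folds of 1.5 and 4, the fold alone, intervals widened 1.5 times, median centring and equal summed FPKM. Software was pandas 2.3.3, numpy 2.4.6, scipy 1.17.1 and matplotlib 3.10.9 under Python 3.11.15.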

Additional observations from a re-analysis of the deposited data

Results flagged for a closer look

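For 8 genes of the lists the difference between *Tmem173*-/- and wild-type BMDCs was called in opposite directions without and with c-di-GMP. The difference between these differences was not tested. Of the 1221 genes called without treatment, 32 showed this. The list genes called without treatment were 177 lower and 78 higher. *Clec4e* had a log2 difference of 2.19 without and -2.07 with treatment, its FPKM going from 12.6 to 234 in wild-type and from 58.1 to 55.7 in *Tmem173*-/- BMDCs. *Il1rn*, the IL-1 receptor antagonist, had 1.11 and -1.78, and the protease *Ctsk* 1.46 and -2.06. *Tlr7*, a sensor of RNA, had 1.09 and -1.03, and the inhibitory receptor *Btla* 2.40 and -1.11. The other way round, *Cxcr2* had -2.22 and 1.17, its FPKM going from 72.4 to 7.204 in wild-type and from 15.4 to 16.4 in *Tmem173*-/- BMDCs. The adhesion gene *Cdh1* had -1.18 and 1.92, and the transferrin receptor *Tfrc* -1.33 and 1.81.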

How the results depend on the processing

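No paired analysis was possible because the deposited table gives 1 value per condition, and leaving out a sample was not possible for the same reason. *Tmem173* kept its call under all 11 alternatives, with log2 differences from -3.76 to -3.38. No named gene that was called changed direction under any alternative run. At a minimum of 5 FPKM, 421 genes were lower, 312 of them also lower in the treated pair and 288 in treated *Tmem173*-/- against untreated *Irf3/7*-/- BMDCs, 215 were higher in both the main and the treated pair, and 16.7% of the lower genes with a promoter held the response element core. At a fold above 4, 279 were lower and 143 higher, 210 and 79 of them also in the treated pair and 211 and 85 in the other pair, and 9.26% of the higher genes held that core. With intervals widened 1.5 times, 213 genes were higher in both the main and the treated pair. The smaller counts follow from stricter thresholds, which leave fewer genes. Why the shares with the core moved was not tested. With both columns set to the same summed FPKM, 365 genes were higher, and of all calls 71.1% were lower, in place of 54.1%. Under it *B2m*, *Bst2*, *Casp4*, *Cd86*, *Cdkn1a*, *Irf4*, *Mgl2*, *Nfkb1* and *Trex1* were called lower, *6330403M23Rik*, *Aldoc*, *Clec9a*, *Cxxc5*, *Fdps*, *Gclm* and *Sqle* were no longer called higher, and 10 of 66 list counts moved by over 1.5 times. Leaving out the genes whose FPKM lies outside its own interval, an alternative chosen after seeing the data, left 658 lower and 554 higher. Of the named genes, *6330403M23Rik*, *Adar*, *Ccnd1*, *Ccr4*, *Cd34*, *Clec9a*, *Cxxc5*, *Mlkl*, *Tnfsf18* and *Trim56* were not called with a pseudocount of 1 FPKM. The intervals are the software's and could not be set against replicates, no depth is known, and differences between cultures of 1 genotype could not be told apart from genotype.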

Other observations

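Further groups of called genes belong to no list above and were chosen after their values were seen, so their counts describe the choice. All 8 GTPases of the *Gimap* family, which are known from lymphocyte survival, were lower in untreated *Tmem173*-/- BMDCs, with a median log2 difference of -4.31. *Gimap4* fell from 42.1 to 0.513 FPKM and *Gimap1* from 41.8 to 2.93 FPKM. *Gimap1* was at 45.05 FPKM in *Irf1*-/- BMDCs, where *Gzmb* was low, and *Gimap4* at 8.94 FPKM. The lymphocyte receptors *Lag3* and *Cd96* were at 6.03 and 0.254 FPKM and at 7.63 and 0.0333 FPKM. The cyclin-dependent kinase inhibitor genes *Cdkn2a* and *Cdkn2b*, which are neighbours in the genome, fell from 85.2 to 1.495 FPKM and from 37.8 to 5.97 FPKM. *Cdkn2a* was at 86.7 FPKM in *Irf1*-/- and 85.5 FPKM in *Irf3/7*-/- BMDCs. *Aldh1a2*, which makes retinoic acid in dendritic cells, fell from 356 to 80.97 FPKM and the vitamin D receptor *Vdr* from 92.2 to 31.8 FPKM, and both were near or above the wild-type level in the other untreated knockouts.

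Some genes of redox and iron handling were higher. *Nfe2l2*, which encodes the antioxidant regulator NRF2, rose from 60.04 to 145 FPKM, *Prdx1* from 788 to 2164 FPKM, *Prdx6* from 58.1 to 148 FPKM, the glutathione reductase *Gsr* from 45.6 to 117 FPKM, and *Blvrb* from 82.7 to 247 FPKM. *Prdx1* was also high in *Irf3/7*-/- BMDCs (1916 FPKM). Not called were *Sqstm1*, *Slc7a11* and *Mt1*, with log2 differences of -0.03, 0.31 and 0.67. The metal transporters *Slc11a1* and *Slc40a1* rose by 6.47-fold and 4.41-fold, whereas the iron genes *Tfrc*, *Hfe*, *Hamp* and *Cp* were called lower, with log2 differences of -1.33, -2.83, -2.90 and -2.05. Of the phagocyte oxidase, *Cybb* rose from 80.4 to 303 FPKM. Further genes known from neutrophils rose too, among them *Cd177* (4.999 and 49.8 FPKM), *Olfm4* (1.01 and 10.6 FPKM), *Hp* (56.7 and 296 FPKM) and *Pglyrp1* (58.7 and 198 FPKM).

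Within 1 Mb of *Tmem173*, 30 genes were tested and 5 (16.7%) were called, 2 lower and 3 higher, against 11.0% of all genes, and within 5 Mb it was 7 of 69 (10.1%). *Cd14*, one of the rises above, is among the 5, beside *Cystm1* (8.41 and 1.91 FPKM), *Nrg2*, *Cxxc5* and *6330403M23Rik*, the last 2 of which were not called with the same summed FPKM.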
